A study of Mus musculus with 10 samples.

Results

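The cytosolic ribosomal protein genes encode the proteins of the ribosome and were followed here as 1 gene family in the embryonic mouse brain, in dorsal telencephalon taken at embryonic day 12. A gene belonged to the family when its symbol was Rpsa, Rplp0, Rplp1 or Rplp2, or was Rpl or Rps followed by a number and at most 1 letter a or x, with pseudogenes, S6 kinases and Rps27l left out. The rule took 76 of 38803 symbols, 30 of the small subunit and 46 of the large, and read no expression value. Total RNA was sequenced in 10 libraries of C57/Bl6 and 129 SvJ background. The 5 control libraries were Rnu11WT/Flx::Emx1-cre+/- and the 5 mutant libraries Rnu11Flx/Flx::Emx1-Cre+/-, so that both groups carried Emx1-Cre and at least 1 floxed copy of Rnu11, and no library without a floxed copy is analysed here. Rnu11 encodes the U11 small nuclear RNA of the minor spliceosome, and Emx1 drives Cre in progenitors of the dorsal telencephalon, so cells outside that lineage are not targeted. The comparison asks how transcript levels differ when both copies, rather than 1, can recombine. Whether every library is a different embryo is not in the labels, and p-values therefore speak only of the spread among these 10 libraries. In bulk tissue fewer cells of a type cannot be told apart from less RNA per cell.

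A ribosome joins a small subunit, which reads the messenger RNA, to a large subunit, which forms the peptide bond. Each subunit is a ribosomal RNA scaffold that carries many different proteins, and cells that divide fast, such as cortical progenitors, spend much of their transcription on them. Messenger RNAs of ribosomal proteins begin with a run of pyrimidines at the cap, the terminal oligopyrimidine (TOP) tract, through which mTOR signalling controls their translation. When ribosome assembly is disturbed, free Rpl5, Rpl11 and 5S ribosomal RNA bind Mdm2, the ligase that marks p53 for decay. Mammalian genomes also carry many processed pseudogenes of these genes, which are copies of the spliced messenger RNA without introns.

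Pyrimidine runs at or shortly after the RefSeq start (GRCm38.p6) are shown for 5 members that return in the results. The 30-base windows read 5′ to 3′ on the strand of the gene, with a matched run in capitals. Counted from 0 at the start base, the capitals begin at 0 in Rpl28 and Rplp2, 4 in Rpl15, 5 in Rps26 and 9 in Rpl13a. In Rps26 and Rpl13a the start base is a g, a purine, so the marked run is not a TOP tract at that start.
Rpl28 (chr7:4792954-4792983, plus strand): ctctcgtgtctCTCTTTCcgtctccggccg
Rplp2 (chr7:141447640-141447669, plus strand): tcagcgtcttcCTTTCgccgccggacgccg
Rpl15 (chr14:18270964-18270993, minus strand): aagccttcttcCTTTCCtctggcggcagcc
Rps26 (chr10:128626483-128626512, minus strand): gccgccggatcCTCTTTCgagtcttggctc
Rpl13a (chr7:45128718-45128747, minus strand): aagacctcctcCTTTCCcaggcggctgccg

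RefSeq start windows were found for 56 of the 76 members, 66 windows in all, and were searched over the 50 bases on either side of the start. The letters CTTTC stood on the sense strand in 53% of the members' windows and in 12.8% of all 32851 windows of the same length. On the antisense strand the shares were 7.58% and 12.1%, so the members' excess was on the sense strand. A match is a string of letters that may lie before or after the start, and where transcripts begin was not measured. The longer run CTCTTTC, which contains CTTTC, was on the sense strand in 21.2% of the members' windows and 1.37% of all windows. CTTTCC, which also contains CTTTC, was there in 31.8% and 4.69%, and the shorter CTTCC, which is also part of the reverse complement of CCGGAAG, in 45.5% and 19.5%. The ETS-type motif CCGGAAG was on either strand in 18.2% of the members' windows and 5.21% of all, and TATAAA on the sense strand in 6.06% and 3.4%. The 31 members with CTTTC on the sense strand had a median mutant minus control difference of 0.11 on the log2 scale, and the 25 with a window but without it 0.05.

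The labels were first checked on the targeted gene. Rnu11 stood at 2283 ± 352.5 FPKM (SD, n = 5) in controls and 892.3 ± 457.6 FPKM (n = 5) in mutants, 39.1% of controls (p = 0.00794 by an exact permutation test, two-sided, the lowest that 5 against 5 libraries allow). Mutants 1, 2 and 3 stood at 712.1, 472.8 and 511.2 FPKM and mutants 4 and 5 at 1344 and 1422, and no mutant reached the lowest control, at 1913. FPKM are fragments per kilobase of transcript, scaled by the authors to library size. The number of fragments is not stated, and rough estimates from the smallest steps in the values ran from 9730000 in control 4 to 20700000 in control 2 and mutant 5, so no counting intervals are given. Libraries fell into 2 sets that cross the genotypes: Rnu12, the U12 small nuclear RNA, stood at 486.9 to 688.3 FPKM in control 5, mutant 4 and mutant 5, called the second set here, and at 5.91 to 33.8 FPKM in the other 7, the first set. The labels name no such sets. Among first-set libraries alone the mutant mean of Rnu11 was 24.7% of the control mean. Among second-set libraries, 2 mutants against 1 control and not tested, it was 61.0%. All 12 dorsal telencephalon markers passed the filter on low values and 0 were called (3 at an unadjusted p under 0.05), with summed levels of 215.6 to 339.8 FPKM in controls and 297.6 to 368.2 in mutants. At that p 7.69% of all tested genes were higher and 1.07% lower. Ventral telencephalon markers summed to 7.73 to 91.0 FPKM in controls, the highest in control 4, and to 10.9 to 34.6 in mutants. Microglial markers summed to 24.5 to 61.3 FPKM in controls and 38.5 to 123.0 in mutants. All 8 that passed the filter lay above 0, as 75.7% of all tested genes did, with 0 past the threshold and 3 at an unadjusted p under 0.05. With library set as a term C1qa and Fcer1g passed, as did 1 neuronal marker, Snap25, where 0.325% of all genes were called higher. Erythroid markers summed to 3907 to 9703 and 5397 to 10160.0 FPKM, endothelial ones to 39.5 to 64.3 and 43.7 to 79.3, mesenchymal ones to 65.0 to 153.5 and 78.6 to 189.2, and neuronal ones to 344.7 to 535.7 and 436.0 to 630.8. All 11 neuronal markers lay above 0, with a median log2 difference of 0.37, 0 called and 3 at an unadjusted p under 0.05. Markers of choroid plexus and hem summed to 215.0 to 430.7 and 182.2 to 410.6 FPKM. The part of other cell types in the values below was not tested.

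Every member was expressed. All 76 had at least 1 FPKM in at least 5 libraries and were tested, and their mean levels ran from 4.42 to 2856 FPKM with a median of 171.2. Rpl41, the smallest protein of the ribosome, was the highest, at 2886 ± 441 FPKM in controls and 2825 ± 215 in mutants. Rpl32 followed with 1214 ± 122 and 1172 ± 67.8 FPKM, then Rpl13a with 1144 ± 263 and 952 ± 250.4, and Rpl7 with 963 ± 77.0 and 986 ± 46.2. In own rows Rpl41 stood apart from the rest, since its lowest library, at 2389 FPKM, lay above the highest library of each of these, whereas Rpl32, Rpl13a and Rpl7 overlapped each other. The lowest was Rpl24, a protein of the bridge between the subunits whose mutation gives the Belly spot and tail mouse, at 4.41 ± 1.21 FPKM in controls and 4.44 ± 0.519 in mutants. Rpl21 (11.1 ± 4.70 and 14.4 ± 4.23 FPKM), Rpl7a (18.7 ± 7.75 and 23.0 ± 6.10) and Rpl37a (19.5 ± 7.46 and 24.1 ± 6.85) came next, with overlapping libraries, and every library of Rpl24 lay below every one of these. The span between the highest and the lowest member was 646-fold.

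**Figure D1:**
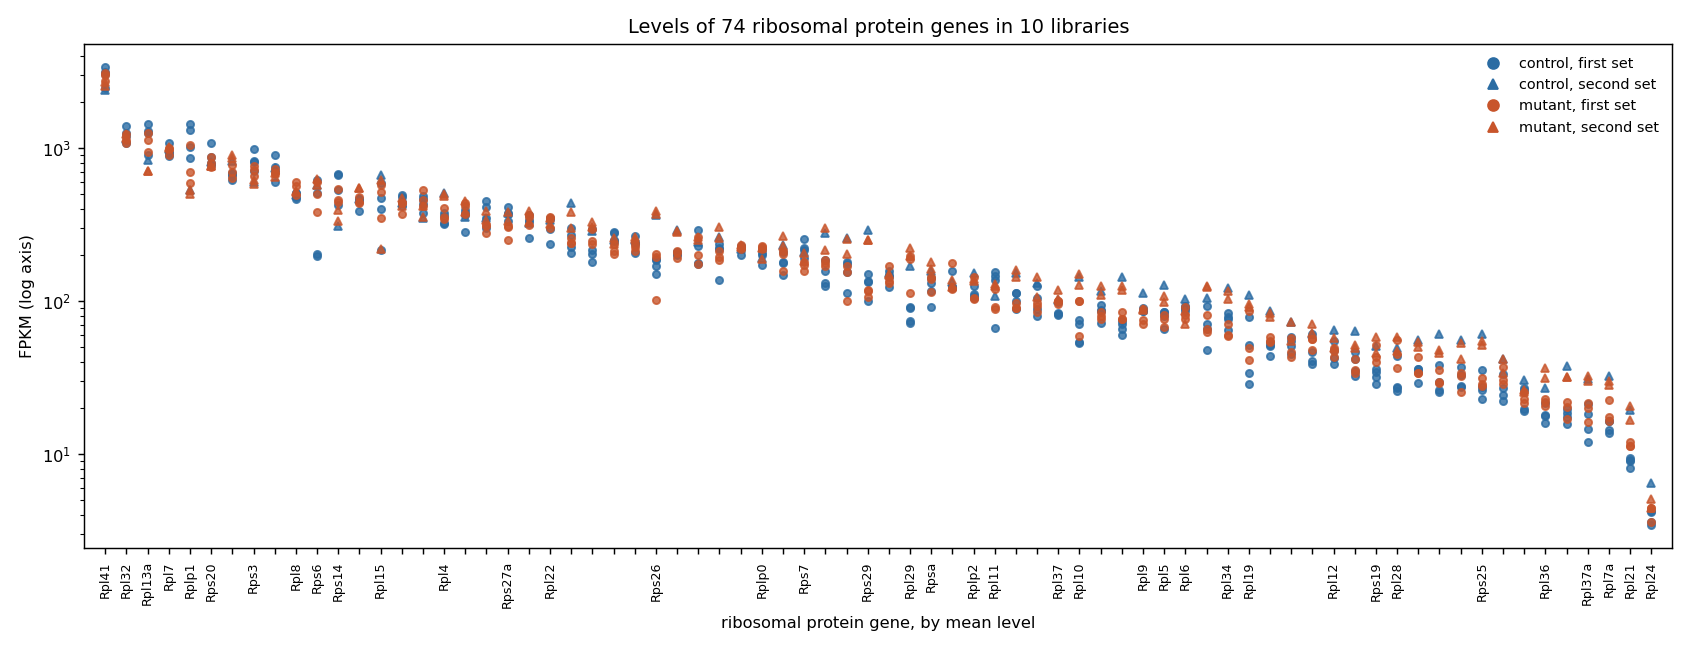
Level of each of 74 of the ribosomal protein genes in FPKM (log axis), ordered by mean and with symbols for genes described in the text, with 1 point per library, blue for control and orange for mutant, circles for the first set and triangles for the second. Means run from 2856 FPKM for Rpl41 down to 4.42 for Rpl24, and triangles lie at the top of the range for many of the lower genes.

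No ribosomal protein gene passed the threshold between mutants and controls. With limma and Benjamini-Hochberg adjustment over all 13522 tested genes, 0 of 76 members were called, where 0.0887% of all tested genes were higher in mutants (12 genes) and 0.0666% lower (9 genes), 0.155% in all. The smallest adjusted p of a member was 0.290, for Rpl29. At an unadjusted p under 0.05 there were 3 members on the higher side, Rpl29, Rpl28 and Rps19, which is 3.95% of the family against 7.69% of all genes, and 1 on the lower side, Rps7, which is 1.32% against 1.07%. In 0 of 76 members did the 5 control and 5 mutant libraries fail to overlap, against 1.52% of all genes with every mutant library higher and 0.377% with every mutant library lower.

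The family's differences were small. The median log2 difference of the 76 members was 0.05, with 50 above 0 and 26 below, and the median of all tested genes was 0.11, with 75.7% above 0. Relative to all genes the family's median was therefore -0.054. The sign of the family's own median depended on scaling. It was -0.069 with 30 members above 0 when libraries were scaled to a common median ratio, which moved the all-gene median to 0.0016. With a common protein-coding sum it was -0.0025 with 36 above 0. Relative to all genes the median was -0.071 and -0.063 with these scalings, and 0.0080 by quantile normalization. Over all genes the median-ratio scaling gave 11 higher and 19 lower calls in place of 12 and 9. Of the 76 differences, 72 lay between -0.5 and 0.5, and the median standard error was 0.16. For 71 members the 95% confidence interval lay within a 2-fold difference in either direction, and for Rpl10, Rpl19, Rpl29, Rplp1 and Rps6 it did not. The sum of all members was 22153 ± 1680 FPKM (SD, n = 5) in controls and 21847 ± 1320 in mutants, or 6.75 ± 0.780% and 6.39 ± 0.314% of the protein-coding FPKM, and the groups overlapped in both measures. The difference in the sum was smaller than the SD of either group, and that in the share was smaller than the SD of controls and larger than that of mutants. Control 4 had the lowest sum of the 10 libraries, 19642 FPKM, and was the lowest library for 30 of the 76 members. Control 5 was the highest library for 25 members and mutant 5 for 21.

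**Figure D2:**
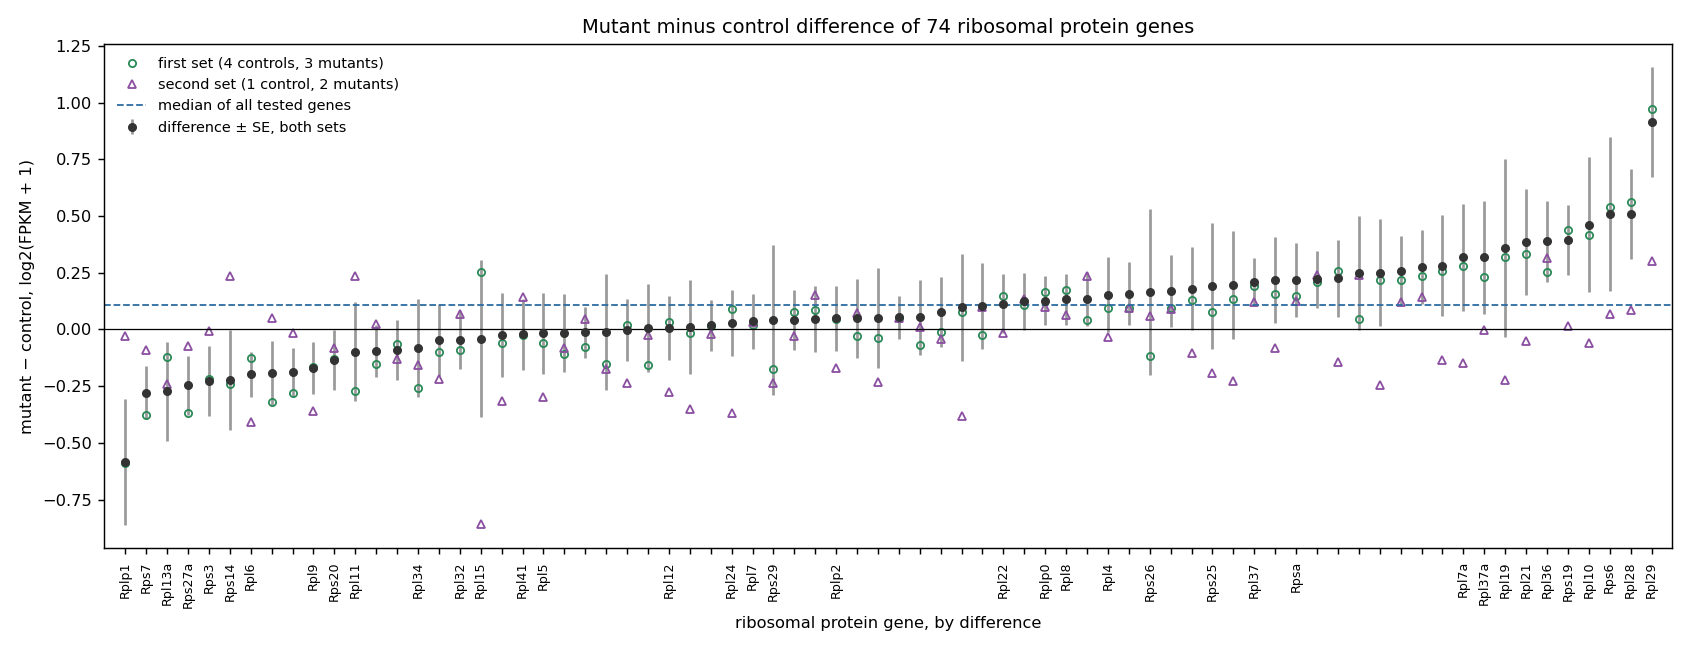
Mutant minus control difference of each of 74 of the genes in log2(FPKM + 1), ordered and with symbols for genes described in the text, with the standard error (black, 5 against 5 libraries) and the values within the first set (green circles) and the second set (purple triangles). The dashed line is the median of all tested genes, 0.11, and the black points run from -0.58 for Rplp1 to 0.91 for Rpl29.

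By role, the 2 proteins of the 5S particle that bind Mdm2 did not pass the threshold. Rpl5 stood at 84.7, 65.6, 84.9, 79.9 and 128 FPKM in controls 1 to 5 and at 67.8, 81.7, 76.2, 99.5 and 108 in mutants 1 to 5, a log2 difference of -0.017, SE 0.18, adjusted p = 0.984. Rpl11 stood at 146, 66.5, 139, 155 and 109 FPKM in controls and 89.5, 120.0, 91.3, 127 and 129 in mutants, a difference of -0.10, SE 0.22, adjusted p = 0.910. Control libraries spanned the mutant range for both genes, and control 2 was the lowest of all for Rpl11. With the FPKM of near-identical pseudogene copies added to the own row, the difference turned to 0.33 for Rpl5 (SE 0.16, adjusted p = 0.576) and was -0.13 for Rpl11. Of 13 members reported to act on Mdm2 or p53, 4 lay above 0 and 9 below, against 75.7% of all genes above 0. Their median was -0.099, with 0 called and 1, Rps7, lower at an unadjusted p under 0.05, where 1.07% of all genes were lower. With library set as a term 3 of the 13 were lower at that p, against 1.71% of all genes. With copies added 0 reached it in either direction, against 8.89% of all genes, the median was -0.012 and 6 lay above 0. All 8 genes of a list of p53, its regulators and its targets lay above 0, as 75.7% of all genes did. An unadjusted p under 0.05 was reached by 7 of them, where 7.69% of all genes were higher at that p. Past the threshold were 2, the receptor Eda2r from 2.24 ± 0.493 to 14.6 ± 6.53 FPKM (log2 difference 2.16, adjusted p = 0.0170) and the cyclin Ccng1 from 23.1 ± 6.03 to 68.0 ± 21.7 FPKM (1.49, adjusted p = 0.0374). With library set as a term 5 of the 8 passed, Cdkn1a, Bbc3 and Bax with these, where 0.325% of all genes were called higher. Over the 22 alternatives Eda2r kept its call in 15 and Ccng1 in 11, with adjusted p up to 0.102 and 0.239, and both missed the threshold without the filter on low values, with the replicate block and without control 1, 2 or 3 or mutant 2 or 3. Ccng1 also missed it with the common protein-coding sum, without trend and without mutant 1 or 5.

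The stalk of the large subunit, which recruits elongation factors, is built of Rplp0 with Rplp1 and Rplp2 on the base formed with Rpl12. Rplp0, the anchor, stood at 202, 207, 221, 173 and 192 FPKM in controls and 219, 225, 230.5, 189 and 222 in mutants, a difference of 0.13, SE 0.11, adjusted p = 0.746, and with copies added the difference was 0.44 (SE 0.20, unadjusted p = 0.0450, adjusted p = 0.557). Rplp2 stood at 109, 105, 111, 126 and 154 FPKM in controls and 103, 145, 105, 139 and 135 in mutants, a difference of 0.048, SE 0.14, adjusted p = 0.938, and its sign turned with the scaling. Rplp1 had the lowest difference of the family. Its levels were 1449.7, 1017, 1313, 864 and 530.2 FPKM in controls and 591, 1046, 701, 533 and 505 in mutants, a difference of -0.58, SE 0.28, adjusted p = 0.583. Controls 1 and 3 were above every mutant, and control 5 was below 4 of the 5 mutants.

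Of the small subunit, Rpsa, which also serves as a laminin receptor at the cell surface, stood at 142, 117, 133, 91.3 and 157 FPKM in controls and 115, 144, 139, 163 and 180.2 in mutants (0.22, SE 0.16, adjusted p = 0.708), with control 4 the lowest and mutant 5 the highest. Rps27a, made as a fusion with ubiquitin, stood at 379, 414, 369.7, 333 and 379 FPKM in controls and 306, 310.1, 253, 385 and 337 in mutants (-0.25, SE 0.13, adjusted p = 0.610), and mutants 4 and 5 lay within the control range. The 30 small-subunit genes had a median difference of 0.05 and the 46 large-subunit genes 0.07, each with 0 called, 2 members at an unadjusted p under 0.05 and a median below that of all genes. The 18 genes of the family that are mutated in Diamond-Blackfan anaemia, an inherited failure of red cell production, had a median of 0.03, and the 9 around the peptide exit tunnel 0.15. The 29 members with a small nucleolar RNA gene within their span had a median of 0.05 and the other 47 members 0.07.

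Rpl29, a large-subunit protein that also binds heparin (chr9:106429454-106431568, plus strand), had the highest difference of the family. It stood at 91.4, 74.8, 91.0, 72.2 and 171 FPKM in controls and 188, 196, 114, 199 and 225 FPKM in mutants, a difference of 0.91, SE 0.24, adjusted p = 0.290. Control 5 was the sole control above a mutant, mutant 3, and without control 5 the difference was 1.13 with an adjusted p of 0.0338, where 0.584% of all genes were called. Leaving it out also took the members with an unadjusted p under 0.05 from 4 to 18, against 20.5% of all genes, whereas leaving out any other single library gave 2 to 5 such members. Control 5 is the sole control of the second set, so without it every second-set library is a mutant. That fit, with genotype alone, mixes the difference between sets, 0.72 for Rpl29 (second minus first), into the genotype difference. Within the first set the groups did not overlap (0.97, adjusted p = 0.0578), and in the second set 1 control and 2 mutants differed by 0.30. Across the settings run here, the adjusted p ranged from 0.0338 to 0.856, the latter with near-identical copies added and library set as a term.

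Rpl28, another large-subunit protein, stood at 27.0, 44.1, 27.4, 26.1 and 49.5 FPKM in controls and 55.9, 36.9, 45.2, 58.6 and 47.3 in mutants (0.51, SE 0.20, adjusted p = 0.501), with controls 2 and 5 within the mutant range. Rps19, the gene most often mutated in Diamond-Blackfan anaemia, stood at 32.1, 34.7, 36.1, 28.9 and 51.3 FPKM in controls and 39.9, 52.2, 43.4, 45.9 and 58.4 in mutants (0.39, SE 0.16, adjusted p = 0.507), with control 5 alone within the mutant range. Rps6, the substrate of the S6 kinases, stood at 199, 620.3, 202, 511 and 576 FPKM in controls and 385, 603, 506, 633 and 577 in mutants (0.51, SE 0.34, adjusted p = 0.681), where controls 1 and 3 alone lay below every mutant. Rpl10, which joins the large subunit late, stood at 54.0, 53.7, 76, 71.4 and 145 FPKM in controls and 101, 59.5, 99.8, 128 and 150.3 in mutants (0.46, SE 0.30, adjusted p = 0.673), with control 5 near the highest mutant. With copies added the differences were 0.42 for Rpl28, 0.16 for Rps19, 0.00087 for Rps6 (SE 0.12, adjusted p = 0.999) and -0.063 for Rpl10.

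On the lower side, Rps7, mutated in some families with Diamond-Blackfan anaemia and a binder of Mdm2, stood at 255, 224, 215, 192 and 209 FPKM in controls and 174, 179, 157, 208 and 184 in mutants (-0.28, SE 0.12, adjusted p = 0.537, unadjusted p = 0.0330). Its groups overlapped in that mutant 4 lay above control 4. Rpl13a, which also silences inflammatory messages outside the ribosome, stood at 1443, 1250.4, 1289, 899.9 and 836 FPKM in controls and 943, 1264, 1138, 709.5 and 707 in mutants (-0.27, SE 0.22, adjusted p = 0.731), and the 3 libraries of the second set were its lowest. With copies added Rps7 differed by -0.036 and Rpl13a by -0.24.

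**Figure D3:**
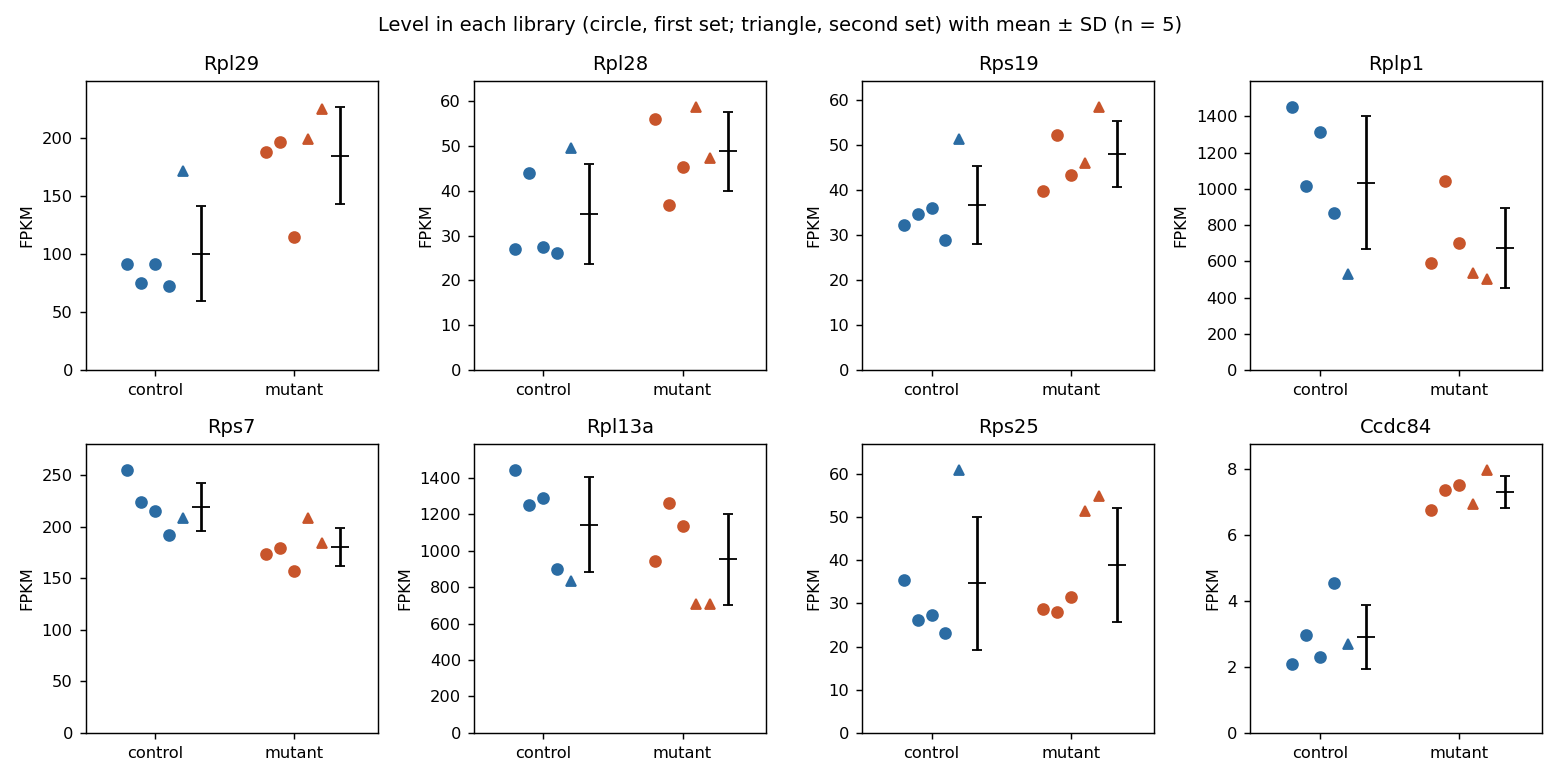
FPKM in each library for 7 ribosomal protein genes and for Ccdc84, by group, circles for the first set and triangles for the second, with the mean and SD (n = 5) beside each group. Only in the Ccdc84 panel are the groups apart, 2.11 to 4.55 FPKM in controls and 6.78 to 7.98 in mutants, whereas the triangles of Rpl29 and Rps25 are the highest points of both groups.

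Rps25, a small-subunit protein needed for initiation at several viral internal entry sites, lies opposite Ccdc84, whose product belongs to the minor spliceosome. In the GENCODE M21 annotation of GRCm38, Rps25 lies at chr9:44407139-44410427 on the plus strand and Ccdc84 at chr9:44410159-44418569 on the minus strand, so the genes converge and their ends share 269 bases. Of these, 206 are exonic in both, 7.66% of the exonic bases of Rps25 and 4.96% of those of Ccdc84. Ccdc84 stood at 2.11, 2.96, 2.29, 4.55 and 2.71 FPKM in controls and 6.78, 7.37, 7.53, 6.94 and 7.98 in mutants and rose with no overlap between the groups (1.11, SE 0.15, adjusted p = 0.0155). Within the first set its log2 difference was 1.09 and within the second 1.19, and its adjusted p ran from 0.00144 to 0.0610 when single libraries were left out, above 0.05 without control 1, 2 or 3 or mutant 2 or 3. It was 0.0528 without the filter on low values. Rps25 stood at 35.5, 26.2, 27.4, 23.2 and 60.9 FPKM in controls and 28.6, 28.0, 31.4, 51.5 and 55.0 in mutants, a difference of 0.19, SE 0.28, adjusted p = 0.853. Its 3 highest libraries were the 3 of the second set, 1 control and 2 mutants, and with library set as a term the difference was 0.0019. Strand is kept by the kit, but no source used here says if the counting used it, so reads from the shared 206 bases cannot be assigned to either gene. Trappc4, which faces Rps25 from its other end, differed by 0.02.

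Pseudogene copies held most of the summed FPKM for much of the family. FPKM divides by transcript length, so this is not a share of fragments. Annotated pseudogenes, processed or not, were matched to each member at 95% identity or more over at least 50% of its coding sequence. This gave 556 copies, 379 of them with a row in the files, for 66 of the 76 members. In 23 members the gene's own row held under 10% of the sum of itself and its copies, in 50 it held under 50%, and the median share was 21.3%. Rpl21 stood at 12.8 FPKM against 1390.3 FPKM for its 38 copies, Rpl24 at 4.42 against 295.0 for 2 copies, Rpl7a at 20.9 against 834.0 for 19, and Rpl37a at 21.8 against 1411 for 4. The 4 genes with the lowest levels thus each held a few percent at most of their own sum. In the annotation other genes on the same strand also overlap some members, among them Gm28037 at Rpl24 and Gm20388 at Rpl13. Their part in the levels was not tested. Rps25 stood at 36.8 FPKM against 894.6 for 2 copies. No source used here says if a fragment that matches several rows was counted once, split or counted in each, so each of these levels is uncertain.

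With copies added the family looked more even. The 76 sums ran from 43.7 to 2862 FPKM, a 65.5-fold span, with a median of 929.2. Both ends of the order changed, with Rpl13a at 2862 and Rpl41 at 2856 FPKM highest and Rpl24, at 299.4, no longer the lowest. The 10 members without a copy in the files, among them Rpl41, Rpl8 and Rps3, had a median level of 473.4 FPKM in their own row, the 28 with 1 to 3 copies 229.7, and the 38 with 4 or more 91.9. Across the 76 genes, which are not independent replicates and share these libraries, Spearman's rho between the number of copies and the own level was -0.43. After addition 0 members were called, where 0.0976% of 13317 genes were higher and 0.0676% lower, and 6 had an unadjusted p under 0.05, against 8.89% of all genes. The median difference was 0.056 with 48 members above 0, and 14 members with a copy changed the sign of their difference.

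The 10 members without a copy in the files are those whose own row is least open to this uncertainty. Their differences ran from -0.23 for Rps3 to 0.21 for Rpl37, with a median of 0.04, 7 above 0, 0 called and 0 at an unadjusted p under 0.05, and the 95% confidence interval of all 10 lay within a 2-fold difference. Rps3, which lines the entry of the messenger RNA channel and also repairs DNA, stood at 993, 814, 825, 712 and 605 FPKM in controls and 656, 769.6, 716, 621 and 583 in mutants (-0.23, SE 0.15, adjusted p = 0.682), with controls 1, 2 and 3 above every mutant. Rpl8, a protein near the peptidyl transferase centre, stood at 511, 467, 507, 478 and 496 FPKM in controls and 492, 604, 569, 522 and 516 in mutants (0.13, SE 0.11, adjusted p = 0.743). Rpl4, whose loop reaches into the exit tunnel, stood at 378, 323, 363, 318 and 506 FPKM in controls and 345, 355, 407, 486 and 503 in mutants (0.15, SE 0.16, adjusted p = 0.800), and Rps20, in the head of the small subunit, at 1090.1, 880.2, 807, 781 and 810.1 FPKM in controls and 798, 873, 754, 761 and 771 in mutants (-0.13, SE 0.13, adjusted p = 0.784). In each of these 4 genes the groups overlapped. The median coefficient of variation over the 10 libraries was 12.9% for members without a copy and 26.1% for members with 4 or more.

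**Figure D4:**
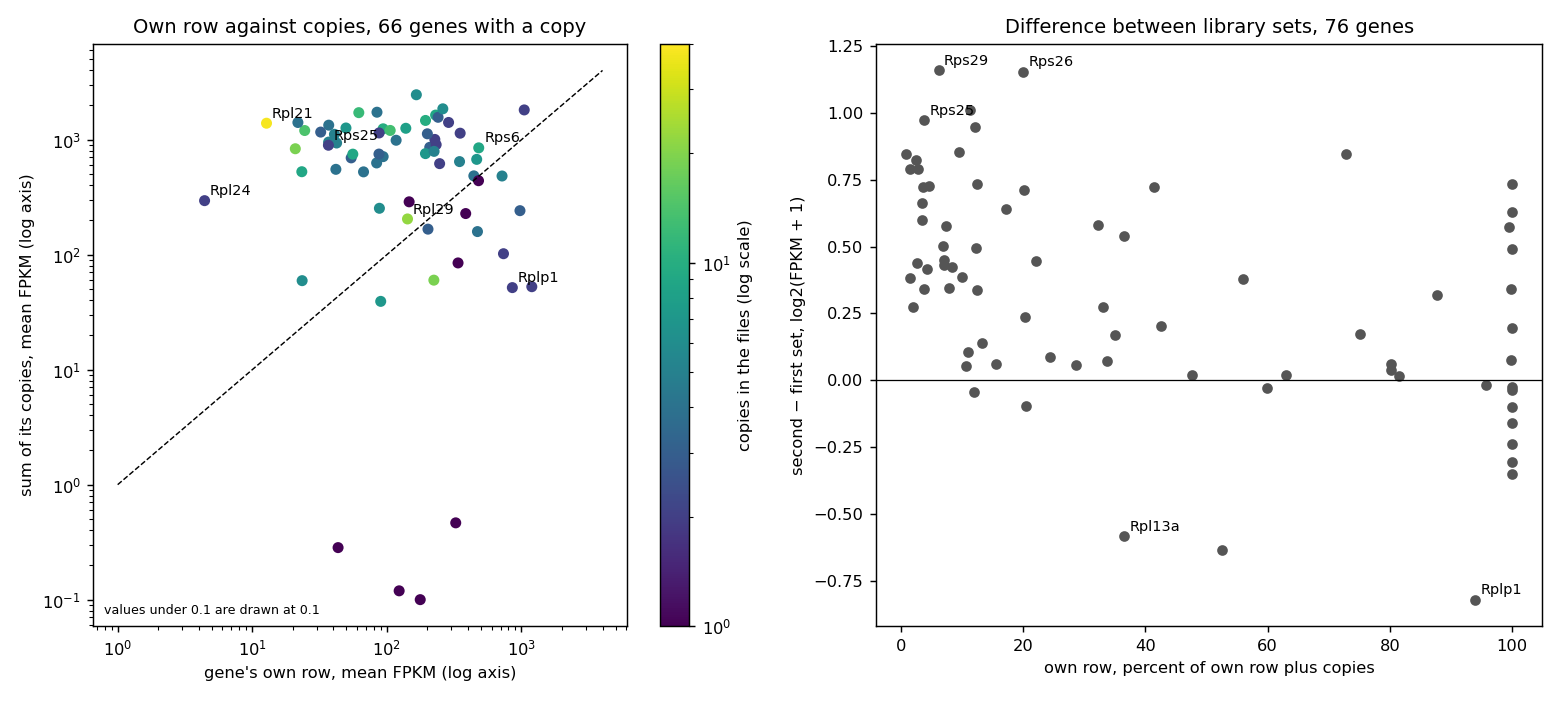
Left, mean FPKM of the own row of 66 genes with at least 1 copy (log axis) against the summed mean FPKM of the copies (log axis), coloured by number of copies, with the line of equal values; most genes lie above the line. Right, second minus first set difference in log2(FPKM + 1) of all 76 genes against the percent that the own row holds of own row plus copies, with the highest values, Rps29 and Rps26, at low percents and Rplp1 the lowest.

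For several members the copies were high in libraries where the own row was low. Rps6 ranged from 198.7 to 632.6 FPKM in its own row, a coefficient of variation of 34.2% over the 10 libraries, while own row and 9 copies together ranged from 1229 to 1459, with a coefficient of 5.51%. The libraries with the lowest Rps6, controls 1 and 3, had the highest copies, 1226 and 1142 FPKM. For Rpl15, a large-subunit protein, the coefficient went from 35.0% to 13.1%. For Rps25 it went from 37.3% to 10.7%, but its copies were not low where its own row was high. Control 5 and mutants 4 and 5, its highest own rows, had 970.7, 946.2 and 1012.6 FPKM of copies. Control 4, its lowest own row, had 787.6, and the own row held 3.89% of the sum. In 41 of the 66 members with a copy the sum varied less than the own row, which can happen without opposite movement of own row and copies. Rpl29 was 1 of these: its 22 copies summed to 223.8 ± 38.9 FPKM (SD, n = 5) in controls and 185.2 ± 99.4 in mutants, and with them added its log2 difference was 0.17 (SE 0.19, adjusted p = 0.810). Mutants 1, 2 and 4, with 85.7, 95.1 and 172.9 FPKM of copies, were below every control, and mutant 5, with 308.2, was above every control. Rpl36, another large-subunit protein, went the other way on addition, from 0.39 in its own row to -0.67 (SE 0.24, adjusted p = 0.453). Over the whole family the own rows held 30.6 ± 0.566% of the sum in controls and 28.8 ± 0.719% in mutants, with mutant 2 within the control range.

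**Figure D5:**
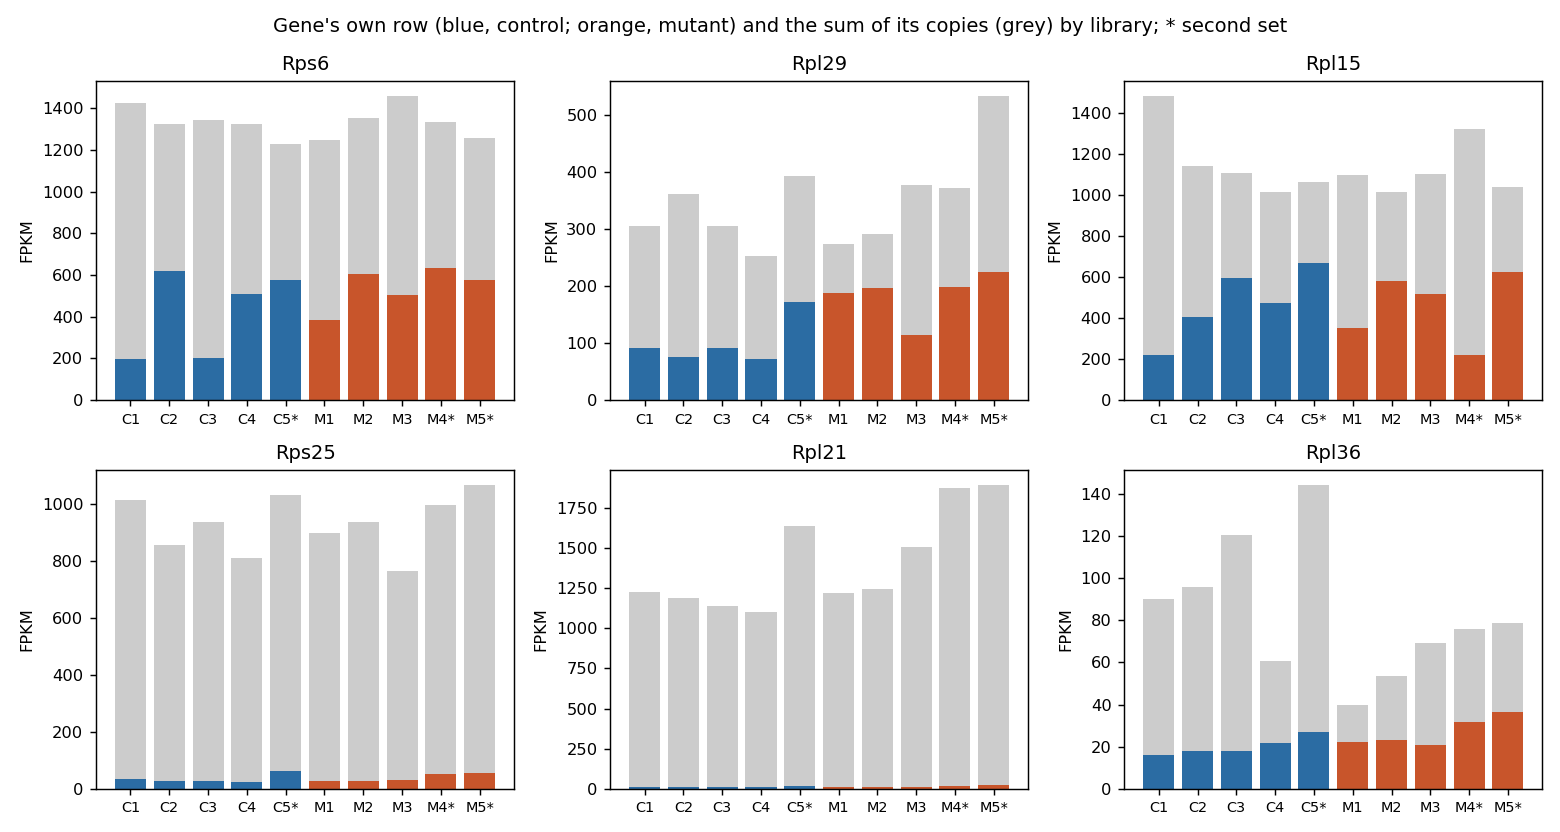
FPKM per library for 6 genes, as the gene's own row (blue for controls C1 to C5, orange for mutants M1 to M5) with the sum of its near-identical copies stacked on it in grey, and an asterisk for the second set. The whole bar of Rps6 stays between 1229 and 1459 FPKM while its coloured part runs from 198.7 to 632.6, and the coloured part of Rpl21 is barely visible.

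More members separated the library sets than the genotypes. In 30 of 76 members, 39.5%, every second-set library was above every first-set library, against 15.5% of all genes, and in 4, Rpl13a, Rplp1, Rps14 and Rps3, every second-set library was below, 5.26% against 6.28%. The median second minus first difference was 0.34 for the members and 0.079 for all genes. Rps29 differed most, with 100.1 to 151 FPKM over the first set and 249.8 to 294 over the second (1.16), then Rps26, at the exit of the messenger RNA channel, with 103 to 205 and 364 to 389 (1.15). The median was -0.068 for members without copies, 0.11 for those with 1 to 3 and 0.50 for those with 4 or more. Adding the copies lowered the number of members above in the second set to 17 and the median to 0.061. Spearman's rho between the own percent of the sum and the set difference was -0.55 across the 76 genes. With set as a term in the fit, 0 members were called, where 0.325% of all genes were higher and 0.222% lower. At an unadjusted p under 0.05 there were 4 members on the higher side, 5.26% against 10.9% of all genes, and 6 on the lower, Rplp1, Rps7, Rps27a, Rpl34, Rpl9 and Rpl6, which is 7.89% against 1.71%. With copies added as well the sides were 8 higher, against 11.1% of all genes, and 2 lower, against 1.61%. The part of depth, copies or library preparation in the sets was not tested.

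Ribosomal genes outside the naming rule did not pass either. Of Fau, Gnb2l1 and Rps3a1, whose products sit in the ribosome, 0 of 3 were called. Among the paralogues, Rpl22l1, which can replace Rpl22, stood at 164.8 ± 33 FPKM in controls and 116.6 ± 11 in mutants (log2 difference -0.48, SE 0.14, adjusted p = 0.357), and Rpl22 itself at 313 ± 47.4 and 336 ± 22.9 (0.11, SE 0.13, adjusted p = 0.817). Of 18 other genes with TOP messages or in translation, 0 were called, with a median of 0.08. Among them Eef2, the elongation factor that moves the ribosome along, ranged from 255.8 to 275.1 FPKM in controls and from 298.9 to 368.0 in mutants without overlap (log2 difference 0.26, adjusted p = 0.517), and Gas5, a non-coding host of small nucleolar RNAs, stood at 94.0 ± 27.5 and 131.6 ± 24.4 FPKM (0.51, adjusted p = 0.476). None passed of 14 chaperones and importers of ribosomal proteins, of 51 small-subunit and 58 large-subunit assembly factors (medians 0.12 and 0.11, 46 and 47 above 0, against 75.7% of all genes), or of 20 genes of mTOR and Myc control of the ribosome (0.17), in which Myc stood at 1.09 ± 0.227 and 1.81 ± 0.362 FPKM (0.42, adjusted p = 0.357). Of 20 genes of RNA polymerase I, 0 passed, and the shared polymerase subunit Polr2e stood at 61.4 ± 5.56 FPKM in controls and 39.8 ± 5.34 in mutants without overlap (-0.62, adjusted p = 0.0671), with an adjusted p of 0.00853 once library set was a term. Polr2e passed in 9 of the 22 alternatives. At an unadjusted p under 0.05 these lists held 0 of the 3 other ribosomal genes, 0 of the chaperones, 1 paralogue, 2 of the TOP and translation genes, 3 and 1 of the small- and large-subunit assembly factors, 3 of the mTOR and Myc genes and 2 of the polymerase I genes, where 7.69% of all tested genes were higher and 1.07% lower at that p.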

How the data were processed

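For each library the authors deposited 1 list of gene symbols with FPKM, a length- and depth-scaled value that keeps no counts. The submitters' processing notes name HISAT2 and the builds mm10 and GRCm38. No source used here gives the program that computed FPKM, its annotation, its use of strand or its treatment of fragments that match several places. The labels' protocols give Trizol extraction, Ribo-Zero removal of ribosomal RNA and a stranded TruSeq kit.

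Values were tested as log2(FPKM + 1), which understates differences of low genes, with limma 3.58.1 in R 4.3.3 (trend and robust moderation, genotype alone, 5 against 5). A gene entered when 5 or more libraries had 1 FPKM or more, 13522 in all, with Benjamini-Hochberg adjustment over all and a threshold of 0.05. The fit was tested on simulated data. Copies were found with BLAST+ 2.17.0 against GENCODE M21 transcripts, each assigned to the member it matched best, and their FPKM were added to the member's, which mixes transcript lengths. Python 3.11.15 with pandas 2.3.3, SciPy 1.17.1 and matplotlib 3.10.9 made the tables, the exact permutation test and the plots. All 76 members matched that annotation, whose coordinates are given. Sequences are from RefSeq (GRCm38.p6).

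The members, gene lists and tests were chosen with earlier results of these data known. The rule for named genes took Rnu11, Rps25 and Ccdc84, every member past the threshold or without overlap (there were 0), the 5 highest and 5 lowest log2 differences, the 4 highest and 4 lowest levels, Rplp0, Rplp1, Rplp2, Rpsa, Rpl5, Rpl11 and Rps27a, and in each other list the genes past the threshold or, where none passed, some with the smallest p. Other members were named after their values were seen. The values of 2 members and 1 further ribosomal gene are not reported here, though both members stay in the family's counts and medians. Library sets were defined from Rnu12, at 100 FPKM or more. The alternatives were another pseudocount (0.1), no filter, 4 other scalings, a fit without trend, library set, replicate block, leaving out each library and, chosen after seeing the data, copies added.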

Additional observations from a re-analysis of the deposited data

Results flagged for a closer look

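The named members and Ccdc84 were searched, in each group of 5 libraries, for a library far from the other 4 by Dixon's criterion. Of 48 groups in 24 genes, 7 held such a library, and chance alone flags about 1 in 20 independent groups. These groups share the same libraries and are not independent, so their number cannot be weighed against that rate. Control 5, which belongs to the second set, was the high library in 5 of them. There Rpl29 stood at 171.3 FPKM where the other controls reached 91.4, Rpl10 at 144.5 where they reached 76, and Rpl24 at 6.46 where they reached 4.28. Rpl21 stood at 19.4 FPKM in control 5 where the other controls reached 9.47, and Rpl7a at 32.4 where they reached 16.6. Without control 5, Rpl29 passed the threshold, as given above, in a fit whose second-set libraries are all mutants. Among mutants, mutant 1 was the low library for Rpl7, at 904.9 FPKM where the others lay at 994.0 or above, and mutant 4 the low one for Rplp0, at 189.4 where the others lay at 218.8 or above. The causes were not tested.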

How the results depend on the processing

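Across 22 alternatives the number of members past the threshold stayed at 0 in all but 1, and leaving out single libraries gave 0 to 1 (Rpl29 without control 5, the sole second-set control). Over all genes 21 passed, against 2 without the filter (0 higher, 2 lower), 11 without trend, 35 by quantile normalization (13 and 22), 74 with library set as a term (44 and 30), 101 in the first set alone (82 and 19) and 74 with copies added and set as a term. Common median ratio gave 11 higher and 19 lower, the common protein-coding sum 9 and 16, the same sum without ribosomal and mitochondrial genes 12 and 16, and the fit without trend 6 and 5. Leaving out 1 library gave 2 to 79 genes, 79 of them without control 5 and the lowest number, 2, each time that control 1, control 2, mutant 2 or mutant 3 was out; 4 passed without control 3, 11 without control 4, 9 without mutant 1 and 10 without mutant 5. The members' median was 0.017 to 0.138 when single libraries were left out. Rnu11 was 24.7% of control in the first set alone (exact p = 0.0571, the smallest that 4 against 3 can give) and 33.3 to 43.7% with 1 library left out. Signs turned for low differences: with the common median ratio Rpl7 -0.087, Rpl24 -0.070 and Rplp2 -0.074; by quantile Rpl41 0.0074, Rpl24 -0.10 and Rplp2 -0.049; with the protein-coding sum Rpl7 -0.019, Rpl24 -0.015 and Rplp2 -0.0065, and without ribosomal and mitochondrial genes in it Rpl7 -0.0014 and Rpl24 -0.00059. With set as a term Rpl41 was 0.024, Rpl24 -0.040 and Rplp2 -0.015. With copies added Rpl10 was -0.063, Rpl24 -0.039 and Rpl5 0.33, and with set as a term too Rps25 -0.045, Rpl10 -0.19, Rps7 0.012, Rpl41 0.024, Rpl24 -0.038, Rplp2 -0.018 and Rpl5 0.33. Leaving out single libraries gave Rpl24 -0.037 to 0.15, Rpl32 -0.089 to 0.0058, Rpl41 -0.085 to 0.042, Rpl5 -0.12 to 0.12 and Rplp2 -0.0072 to 0.14. The causes were not tested. Deviations of same-numbered libraries correlated at 0.077, 0.155, 0.236, -0.107 and 0.521, and controls 3 and 5 alone correlated best with their own number. Control 5 and mutant 5 are both of the second set. Whether same-numbered libraries were paired by design is not in the labels, and these correlations cannot decide it. With the replicate block 14 genes passed, 0 of them members, 8 members had an unadjusted p under 0.05, and Rpl29 had an adjusted p of 0.167. Depth is not stated, so what counting error limits could not be computed.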
